A study of Homo sapiens with 1 sample.

Results

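The miR-26 family was examined on 1 microarray of DLD-1 cells, an established human colorectal carcinoma line. Its members were chosen by name, as the human miRNAs whose spots carried the names of the family's mature arms, and they were 5 of the 2549 human miRNAs on the array. They were the guides hsa-miR-26a-5p and hsa-miR-26b-5p and the passenger arms hsa-miR-26a-1-3p, hsa-miR-26a-2-3p and hsa-miR-26b-3p. The study asked how the circular RNA circLONP2 alters miRNAs. The cells analysed here were transfected with the negative control plasmid pLVX-NC and grown in medium with fetal bovine serum, and the array of cells overexpressing circLONP2 was not analysed here. With 1 array of 1 condition no difference between conditions could be tested. Unless named otherwise, each error below is the SD between spots of the same array, which are technical repeats. For the mean brightness of a miRNA it is taken over the spots of all its probes.

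MiRNAs of the miR-26 family are widely expressed and conserved among vertebrates. Their genes lie inside the genes of small C-terminal domain phosphatases (CTDSPL, CTDSP2 and CTDSP1), and each hairpin is cut into a guide from its 5′ side and a passenger strand from its 3′ side. The guide is loaded into Argonaute and finds its targets mainly through its seed, bases 2 to 8. EZH2, the methyltransferase of the Polycomb repressive complex, is among its known targets. The human genome makes miR-26a from a pair of loci and miR-26b from a single one.

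The mature sequences are shown because the comparison of the guides turns on how little they differ. They are given 5′ to 3′ from the RefSeq annotation of GRCh38.p14, with the seed in capitals:
hsa-miR-26a-5p: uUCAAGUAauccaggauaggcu
hsa-miR-26b-5p: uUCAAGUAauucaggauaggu
hsa-miR-26a-1-3p: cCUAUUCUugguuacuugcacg
hsa-miR-26a-2-3p: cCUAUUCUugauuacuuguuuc
hsa-miR-26b-3p: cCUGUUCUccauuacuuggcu

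Counted from the 5′ end, the guides share their first 10 bases and differ over the length of miR-26b-5p by C11U and C21U, where the first letter is that of miR-26a-5p. miR-26a-5p is 22 bases long and miR-26b-5p is 21. The passenger arms of the miR-26a loci share their seed and differ at 5 of 22 positions. The seed of miR-26b-3p differs from both.

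The hairpins show which arm can tell the loci apart. The mature arms are in capitals, and each hairpin is given with its coordinates in the same annotation and the phosphatase gene around it:
MIR26A1 in CTDSPL, chr3:37969404-37969480, plus strand: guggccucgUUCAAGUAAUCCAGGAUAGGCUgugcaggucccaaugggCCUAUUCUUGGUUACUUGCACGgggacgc
MIR26A2 in CTDSP2, chr12:57824609-57824692, minus strand: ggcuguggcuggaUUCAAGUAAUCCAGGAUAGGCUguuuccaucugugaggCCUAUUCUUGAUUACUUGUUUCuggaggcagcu
MIR26B in CTDSP1, chr2:218402646-218402722, plus strand: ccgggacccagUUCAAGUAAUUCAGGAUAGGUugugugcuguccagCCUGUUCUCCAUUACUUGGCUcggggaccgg

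MIR26A1 and MIR26A2 yield the same guide, so only their 3p arms separate them on the array.

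The array read Cy3 brightness, from which the scanner software had subtracted the local background, and every miRNA of the family had 20 spots spread over 2 to 4 probes. Spots marked as outliers were left out. Each probe was given the mean log2 brightness of its spots, and each miRNA the mean of its probes. This log2 signal was set against the 75th percentile of the 2567 detected probes, a brightness of 248.8. Different probes bind with different strength, so a difference in brightness between members is not a difference in the amount of RNA. The 1000 negative control spots had a 99th percentile of 12.5. The cells' label was set against miRNAs known to mark cell types. Of 8 markers of epithelial and intestinal cells, 6 carried the software's Detected flag, while miR-192-5p (5.46) and miR-194-5p (0.209) did not. Of all human miRNAs on the array, 56.8% carried it. miR-141-3p read 3024, and the other epithelial markers with the flag ran only from 18.3 (miR-200a-3p) to 85.3 (miR-200c-3p). The flag was also carried by 3 of 4 blood markers, at brightness values up to 16.5, and by 4 of 6 markers of stroma, endothelium and muscle, up to 58.9. Of 2 liver and brain markers, miR-122-5p of liver (-1.41) lacked it and miR-124-3p of brain carried it, at 77.2. The part of these signals in the results below was not tested.

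Of the 5 members, only hsa-miR-26a-5p carried the Detected flag, against 56.8% of all human miRNAs on the array. No other member had a probe brighter than the negative controls at their 99th percentile, a level that 55.9% of human miRNAs passed. Its mean brightness was 112.4 ± 43.3 (SD over 18 spots), and all 20 of its spots were well above background. Its log2 signal was 1.21 below the reference percentile (-1.21). 63.5% of the 1448 detected human miRNAs were dimmer on that scale. The software's total signal for it was 42.8 ± 3.36 (the software's error), and in the values that the authors normalized it stood at 5.03 on the log2 scale. The miRNAs next above it in log2 signal were miR-4450 (-1.21) and miR-4632-5p (-1.21), and those next below were miR-7156-3p (-1.22) and miR-518c-5p (-1.23). These neighbours differed from miR-26a-5p by less than the SD between its spots, 0.39 on the log2 scale.

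**Figure D1:**
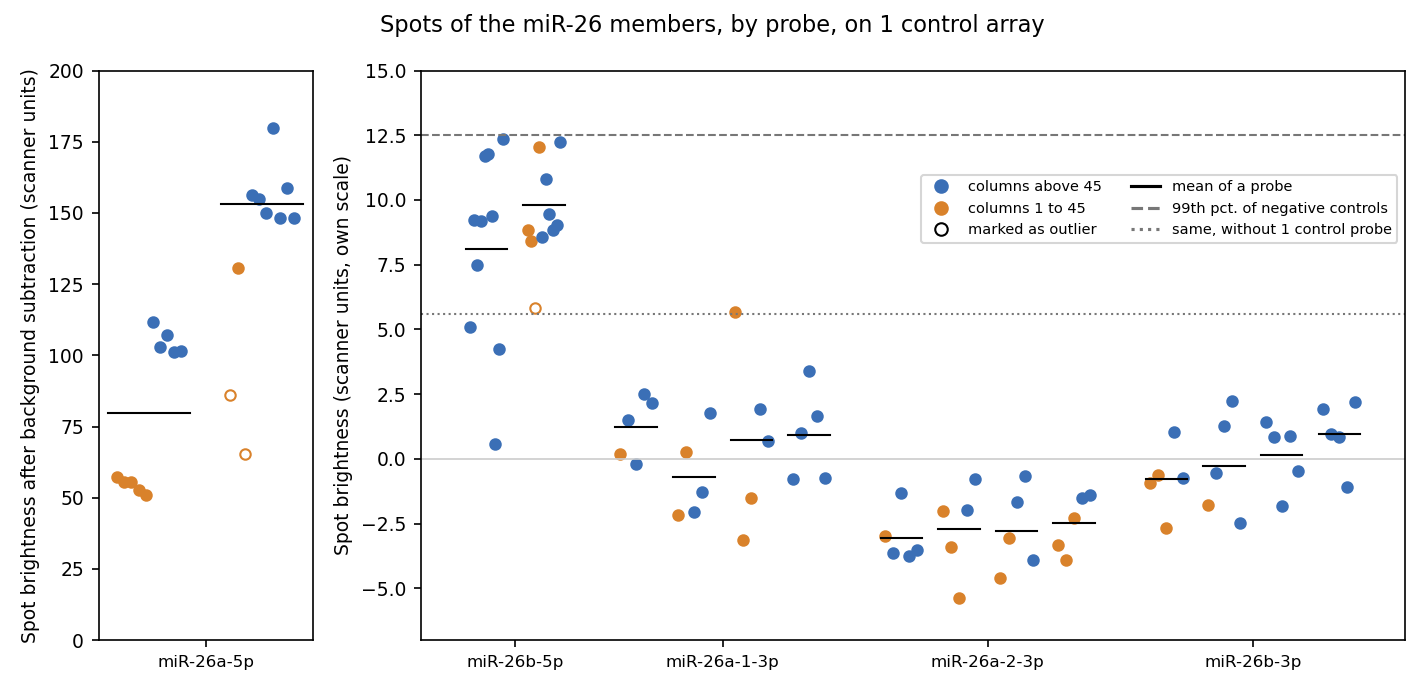
Brightness of every spot of the 5 members in scanner units, one cluster of points per probe, with miR-26a-5p on a scale of its own at the left. Orange points lie in array columns 1 to 45 and blue points in the others, open points were marked as outliers, and the bars are means without them. The dotted line is the 99th percentile without 1 negative control probe (5.58). All miR-26a-5p spots lie between 51.1 and 179.7, and every spot of the other members lies below the dashed line at 12.5.

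The 20 spots of miR-26a-5p came from 2 probes, and the brightness of each depended on where on the array the spot lay. In array columns 1 to 45, the dimmer probe read 51.1, 52.6, 55.4, 55.7 and 57.3. Its 5 spots in the columns above 45 read 101.3, 101.5, 102.9, 107.0 and 111.7. The sides did not overlap, and no spot fell between 57.3 and 101.3. The brighter probe read 65.4, 85.9 and 130.7 in columns 1 to 45, and the first pair of these were the miR-26a-5p spots marked as outliers. Its 7 spots in the other columns ran from 148.2 to 179.7 with a mean of 156.5. Again the sides did not overlap. The boundary at column 45 was set after these values were seen.

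The dimming of these columns was found across the array, and the dimmer miR-26a-5p probe was among the probes that showed it most. For each of 1022 probes with every spot well above background and at least 3 spots on each side, the median log2 brightness in columns 1 to 45 was set against that in the other columns. The difference had a median of -0.23 over these probes (quartiles -0.45 and -0.09), and it was below 0 for 92.2% of them. For the dimmer miR-26a-5p probe it was -0.89 and for the brighter -0.85, with outlier-marked spots kept. Only 4.50% and 5.77% of the probes had a more negative value. The value of the brighter probe rests on 3 spots in columns 1 to 45, of which 2 were marked as outliers. Its unmarked spot there read 130.7. Without the marked spots this probe would not have met the rule of at least 3 spots. Of the human miRNA spots in columns 1 to 45, 7.67% were marked as outliers, against 2.71% of the spots in the other columns. Since miR-26a-5p values entered the choice of the boundary, these are descriptions. The cause of the dimming was not tested.

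**Figure D2:**
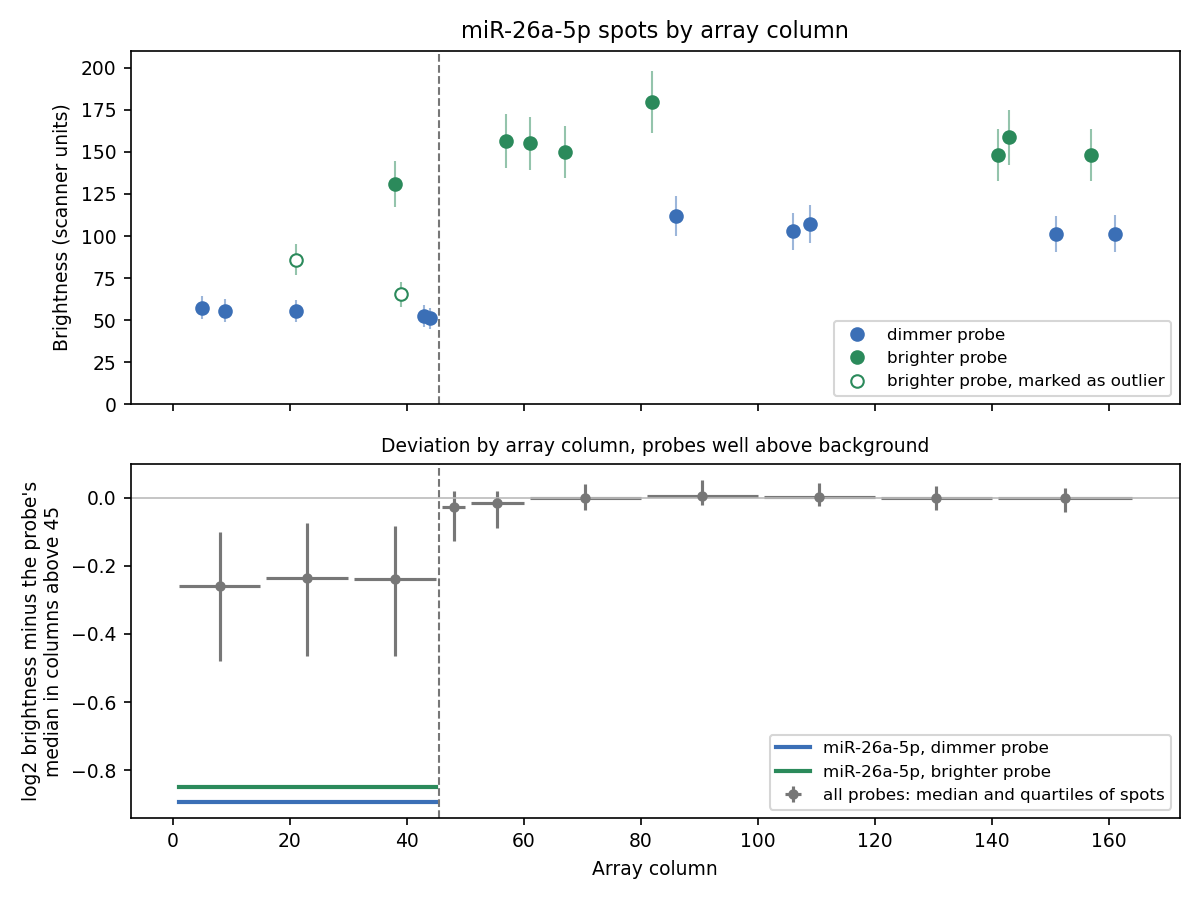
Upper panel, brightness of the miR-26a-5p spots in scanner units against array column, with the software's error of each spot. Lower panel, log2 deviation of spots from their probe's median in columns above 45, as medians and quartiles of all probes with every spot well above background, and the 2 miR-26a-5p probes in columns 1 to 45. The miR-26a-5p lines at -0.89 and -0.85 lie below the medians of all probes, which run from -0.26 to -0.23 there. Outlier-marked spots are included, and 2 of the 3 spots behind the -0.85 line were so marked.

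The position of the spots also entered the comparison of the miR-26a-5p probes with each other. Over the spots used, their log2 brightness differed by 1.02 (standard error 0.17 from the spots). The dimmer probe kept all 5 of its spots in columns 1 to 45, whereas the brighter probe lost 2 of 3 as outliers. In the columns above 45 alone the difference was 0.58 (standard error 0.05). It was larger than that of 86.3% of 950 detected miRNAs with several probes and every spot well above background, and of 76.1% of 949 in the columns above 45. With those columns alone the log2 signal of miR-26a-5p was -1.02.

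hsa-miR-26b-5p, whose sequence is so close to that of miR-26a-5p, did not carry the Detected flag. The spots of its first probe read 0.564 at the lowest, 9.19 at the median and 12.4 at the highest, and those of its second probe 5.82, 8.94 and 12.3. Its mean brightness was 8.91 ± 2.99 (SD over 19 spots). None of its spots was well above background, and the lowest miR-26a-5p spot, 51.1, was above all of them. However, 19 of its 20 spots were positive and significant over the local background by the software's looser test. Only 64 of the 1101 undetected human miRNAs (5.81%) reached that number, and 96.7% of the undetected miRNAs were dimmer. Its brightest probe, at 9.81, lay below the 99th percentile of all negative controls and above the 5.58 reached without 1 negative control probe that stood apart. The level of miR-26b-5p therefore has only an upper bound on this array. The first probe had no spot in columns 1 to 45. The second had 4 there, with a mean of 8.77 ± 2.55, against 9.83 ± 1.42 for its 6 other spots. Among the 4 was a spot marked as an outlier, at 5.82.

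The guides were compared in brightness. miR-26a-5p was at least 7.83-fold brighter (2.97 on the log2 scale) than miR-26b-5p, counted against the lowest log2 signal of a probe well above background, a brightness of 13.7. This bound holds for the main processing only. Under other processing, given below, it ran from 1.16 to 5.29 on the log2 scale. The binding strength of the probes was not known. Cross-hybridization between the guides was not tested, as probe sequences were not used here.

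None of the locus-specific passenger arms carried the Detected flag, against 49.4% of the human miRNAs on the array whose names end in 3p that did. hsa-miR-26a-1-3p, from the locus in CTDSPL, averaged 0.546 ± 2.13 (SD over 20 spots) in brightness, with a lowest spot of -3.14 and a highest of 5.69. That highest spot was the only passenger spot of the family that was positive and significant. hsa-miR-26a-2-3p, from the locus in CTDSP2, had a mean of -2.75 ± 1.31 (SD over 20 spots) and ran from -5.39 to -0.646, so that every spot was below its local background. The negative control spots likewise had a median below 0, at -2.35. hsa-miR-26b-3p, from the locus in CTDSP1, had a mean of 0.0274 ± 1.53 (SD over 20 spots) and ran from -2.69 to 2.24. The ranges of miR-26a-1-3p and miR-26b-3p overlapped with each other and with that of miR-26a-2-3p. Neither the order of the passenger arms nor the share of either miR-26a locus in the guide can be read from such values.

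Of 5 members, 4 thus held the lowest deposited value, 2.32, which all 1101 undetected human miRNAs had. Against both miR-26a passenger arms the guide was again at least 7.83-fold brighter, the same bound as against miR-26b-5p. No such value is given for the miR-26b hairpin, since neither of its arms was well above background. A bright 5p arm beside a 3p arm without the flag was common on the array. Among 196 hairpins with arms named 5p and 3p alone, whose 5p arm was detected and at least as bright as miR-26a-5p, the 3p arm lacked the flag in 46.9%. Of all human miRNAs named 3p, 49.4% carried the flag, so its lack was about as common without that choice of hairpins. Which arm of these hairpins is the guide was not examined.

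**Figure D3:**
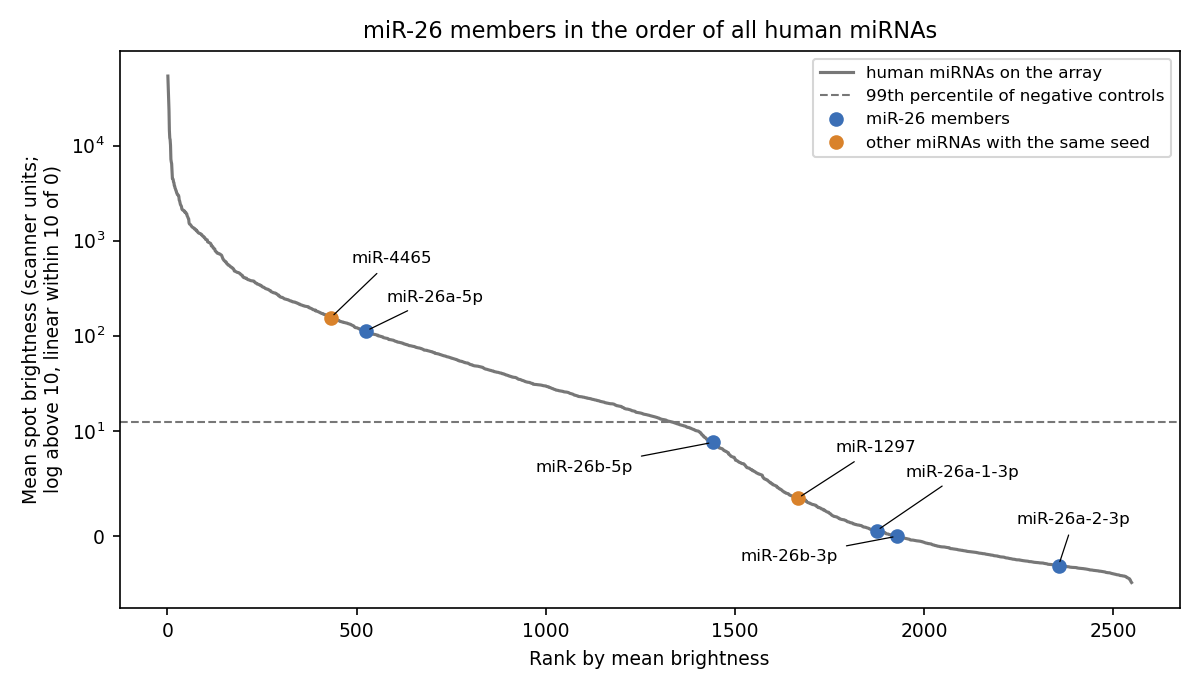
Mean spot brightness of all 2549 human miRNAs in order of rank, on an axis that is logarithmic above 10 and linear around 0. miR-26a-5p (112.4) and miR-4465 (155.2), which has the same seed, lie on the upper part of the curve, and the other members and miR-1297 lie below the dashed line at 12.5.

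The RefSeq table held 2 other human miRNAs with the seed of the miR-26 guides, and both were on the array. Their sequences show how far the likeness goes beyond the seed, in capitals:
hsa-miR-1297: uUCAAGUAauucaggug
hsa-miR-4465: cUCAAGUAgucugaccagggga

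miR-1297 is identical to miR-26b-5p over its first 15 bases and is 17 bases long. It lacked the Detected flag and averaged 3.63 ± 2.23 in brightness (SD over 20 spots). Of these spots 11 were positive and significant and none was well above background. miR-4465 differs from miR-26a-5p at 11 of 22 positions. miR-4465 was detected, at an average of 155.2 ± 7.07 (SD over 19 spots) and a log2 signal of -0.68. Thus 2 of the 4 miRNAs with this seed were detected, near the share of all human miRNAs on the array (56.8%). The miR-4465 probe with at least 3 spots on each side showed a log2 difference of -0.09 between columns 1 to 45 and the others, against -0.89 and -0.85 for miR-26a-5p. The mean brightness of the 4 miRNAs ran from 3.63 to 155.2.

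The miR-29 and miR-30 families also have several guides, and some of their passenger arms are specific to a locus. They were used for comparison, and how alike their sequences are was not examined. All 3 miR-29 guides were detected, with brightness values from 38.1 to 384.1, and 0 of 4 miR-29 passenger arms were. All 5 miR-30 guides were detected, from 10.5 to 243.1, as were 4 of 6 miR-30 passenger arms. The dimmest of these guides, miR-30b-5p (10.5) and miR-30c-5p (11.4), averaged below the negative control level of 12.5, as miR-26b-5p (8.91) did. Their brightest probes, at 17.2 and 14.6, lay above that level, and that of miR-26b-5p, at 9.81, lay below it. In the miR-26 family 1 of 2 guides and 0 of 3 passenger arms were detected. The miR-26a-5p signal of -1.21 lay within the range of the miR-29 guides, from -2.71 to 0.55, and of the miR-30 guides, from -4.87 to -0.04. In columns 1 to 45 the log2 brightness of the guide probes with at least 3 spots on each side differed by 0.01 for miR-29a-3p, -0.19 for miR-29b-3p, -0.10 for miR-30d-5p and -0.01 for miR-30e-5p. Among the passenger probes it was -0.81 and -0.44 for miR-30c-2-3p and -0.40 for miR-30b-3p, so that the dimming of the miR-26a-5p probes (-0.89 and -0.85) was close to that of a miR-30c-2-3p probe.

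**Figure D4:**
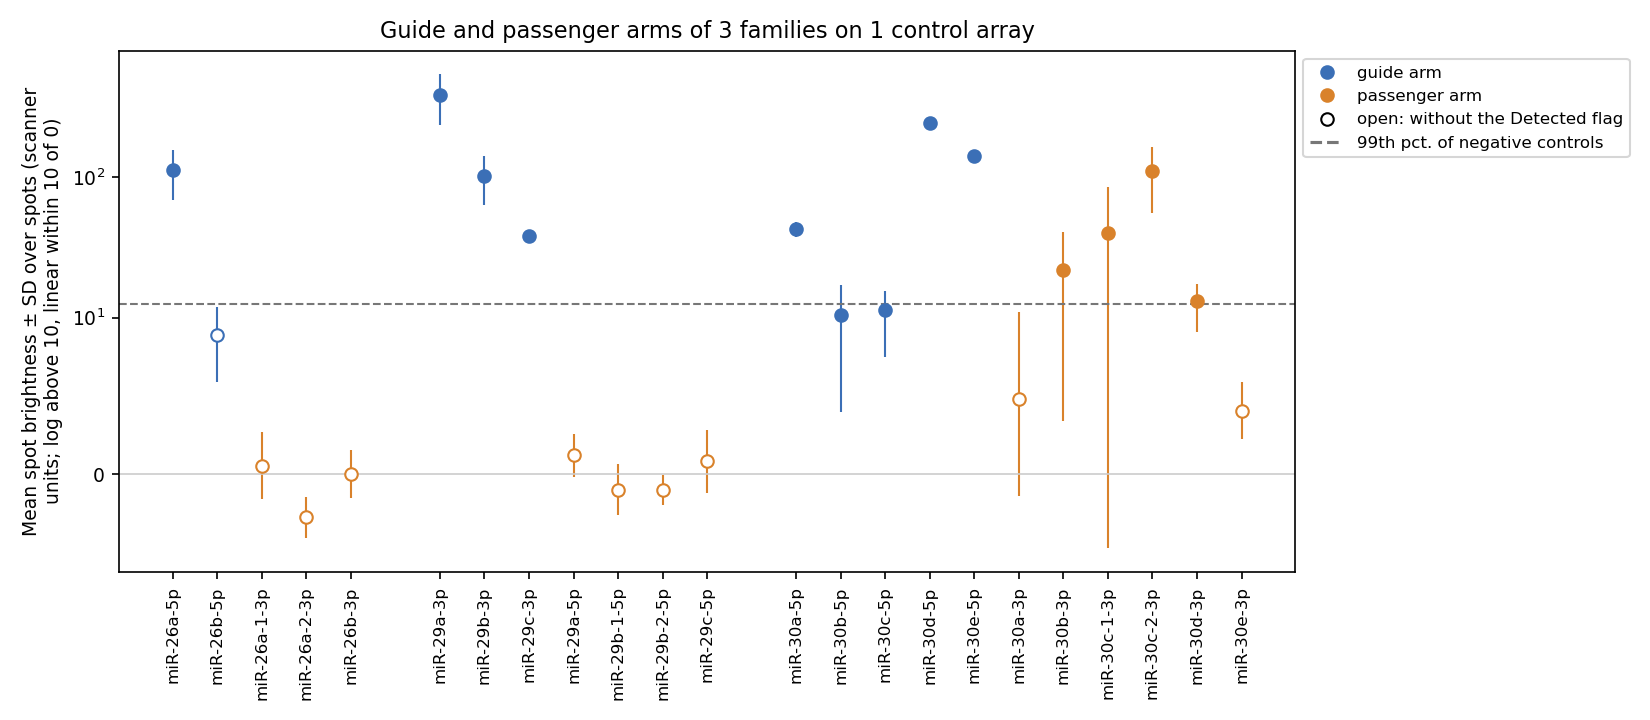
Mean spot brightness with SD over spots for guide and passenger arms of the miR-26, miR-29 and miR-30 families, on an axis that is logarithmic above 10 and linear around 0. Open points lacked the Detected flag. miR-26b-5p is the only open guide, and all miR-26 and miR-29 passenger arms are open. The filled guides miR-30b-5p (10.5) and miR-30c-5p (11.4) also lie below the dashed line at 12.5.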

How the data were processed

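miRNA was measured on 1 array of the negative control transfection. The authors scanned it on an Agilent scanner and deposited the Feature Extraction 11.0.1.1 output, whose brightness values are intensities on a linear scale after local background subtraction. The authors also deposited log2 values, quantile normalized in GeneSpring GX together with arrays that the sources used here do not name. The labels describe ligation of Cy3 to miRNA, the methods labelled cDNA.

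Controls and outlier-marked spots were not used. Brightness had a floor of 1 before log2 was taken, and means were taken within probes first. A detected probe belonged to a miRNA with the Detected flag with a share of 0.5 or more well-above-background spots. Passenger arms lay at the lower limit, so no log2 signal is given for them. A member at background was given as a bound, against the lowest such probe. With 1 array no p-value is given, and array number limits the precision. Of 2549 array names, 2248 were in the RefSeq table, all members included.

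The members and lists were chosen with earlier results of these data known. The text names the members, miRNAs sharing their seed, and the 2 detected miRNAs next above and next below the detected guide, and gives the families with several loci by range and counts. Columns 1 to 45 and the marker, miR-29 and miR-30 miRNAs given by name were picked out with their values in view. Normexp correction (limma 3.58.1, R 4.3.3, offset 50) used median spot signals. Python 3.11.15, numpy 2.4.6, pandas 2.3.3 and matplotlib 3.10.9 were used, and the column comparison was tested on simulated data.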

Additional observations from a re-analysis of the deposited data

How the results depend on the processing

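hsa-miR-26a-5p was the only member detected under both stricter criteria, and miR-26b-5p joined it, giving 2, when a probe needed a share of 0.5 of its spots positive and significant. The number of members with a probe above the negative controls also became 2 without the brightest negative control probe, and stayed 1 against the highest negative control spot, after normexp correction and in the columns above 45. The share of all human miRNAs that passed either looser criterion is not given here, so nothing about the family can be read from these counts of 2. The bound of 2.97 on the log2 scale, for miR-26a-5p over miR-26b-5p and over both miR-26a passenger arms alike, was 1.16 after normexp correction, whose offset narrows ratios, 5.29 from the software's total signal, 3.48 for the brightest probe and 2.46 for the dimmest. It was 2.40 against the lowest probe with every spot well above background, a level added after the data were examined. In the deposited values, with spots averaged without regard to probe, with outlier spots kept and in the columns above 45 it moved by less than the SD between spots. Its sign could not change, because it is counted against the lowest detected level. No value of miR-26b-5p or of the passenger arms enters it. The miR-26a-5p signal of -1.21 turned to 0.58 when the reference percentile was taken over all 5893 probes, a lower reference (71.9). Columns were examined only after the values were seen. No total signal is given for the other members, for which the software writes a fixed value. No paired analysis was possible because a single array of 1 group was used.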

Other observations

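The dimming in columns 1 to 45 went with the base composition of the miRNA. Over 902 probes with a RefSeq sequence, Spearman's rho between the GC content of the mature miRNA and the log2 difference of columns 1 to 45 from the others was 0.35 and Pearson's r 0.36. This is a description across probes of 1 array, which share the array and in part the miRNA. The median difference was -0.39 for 92 probes of miRNAs with GC content under 45%, -0.32 for 396 probes from 45% to under 60%, and -0.18 for 414 probes at 60% or more. miR-26a-5p has a GC content of 40.9%, as do miR-29a-3p and miR-30e-5p, whose probes differed by 0.01 and -0.01. The median brightness of the negative control spots was -2.59 in columns 1 to 45 and -2.25 in the others.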
